A study of Mus musculus with 9 samples.

Results

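The genes described here are the transcription factor Nrf2 (gene Nfe2l2), its inhibitor Keap1 and 8 known antioxidant targets or partners of the pathway, read in mouse splenic dendritic cells (DCs) with and without C/EBPβ. They are Nfe2l2, Keap1, Hmox1, Nqo1, Gclm, Gclc, Srxn1, Txnrd1, Slc7a11 and Sqstm1, 10 of the 22180 genes tested, and each was found on the array through a probe annotated with that symbol alone. The 10 were grouped by pathway, but chosen on the difference between knockout and control with its values known. Their values in that contrast are therefore a description and carry no test.

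Total RNA of DCs sorted from spleen as CD11c-positive and MHC class II-positive cells was hybridised to 9 single-colour arrays, 1 per sample. The 6 control samples carried intact C/EBPβ (labelled C/EBPbeta+/+). The 3 knockout samples (C/EBPbeta-/-) came from mice with a loxP-flanked C/EBPβ gene and Cre under the promoter of CD11c, so that deletion follows CD11c expression and can also occur in other CD11c-expressing cells. All 9 samples came from naive mice of the C57BL/6 background, whose age is not stated. The labels name C57BL/6 and CD11c.Cre mice as sources without saying which control came from which, so an effect of Cre and one of the deletion cannot be told apart. Nothing says that replicates were separate animals, so the spread between samples may be technical.

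Nrf2 is a basic leucine zipper factor that drives antioxidant and detoxification genes. In unstressed cells Keap1 binds it and hands it to a ubiquitin ligase for degradation, and oxidants or electrophiles that modify Keap1 let Nrf2 accumulate and bind antioxidant response elements with small Maf proteins. Because control is largely at the protein level, transcript levels of Nfe2l2 and of its targets need not move together. The autophagy receptor p62, encoded by Sqstm1, competes for Keap1. In myeloid cells Nrf2 is known to restrain inflammatory gene expression.

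All values below are log2 intensities, in which a difference of 1 is a doubling. Array medians lay between 5.49 and 5.56, and the correlation between any pair of arrays over all probes lay between 0.987 and 0.996. Cebpb, the deleted gene, read 5.37 to 5.60 in the knockouts and 6.64 to 7.15 in the controls (limma's adjusted p = 0.00074). Of the DC markers, 11 of 11 measured lay above the median gene and 0 passed 0.05. The MHC class II gene H2-Ab1 read 13.65 to 13.75 over all samples. All 12 red pulp macrophage and all 10 B cell markers measured also lay above the median gene. These levels therefore do not measure the purity of the sort. Knockout replicate 3 stood apart in B cell markers: the mean of 10 was 0.83 above the control mean in it, against -0.071 to 0.15 in the controls and 0.20 and -0.16 in knockout replicates 1 and 2. For that reason values are also given without it.

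The regulator itself was higher in the cells without C/EBPβ, while its inhibitor differed by less than the spread between samples. Nfe2l2 read 10.79, 10.81, 10.67, 10.63, 10.74 and 10.75 in control replicates 1 to 6. In knockout replicates 1 to 3 it read 11.27, 11.36 and 11.02. Every knockout lay above every control, with replicate 3 the nearest to them. The mean was 10.73 ± 0.071 (SD, n = 6) in the controls and 11.22 ± 0.18 (SD, n = 3) in the knockouts, a difference of 0.49 (SE 0.080) or 1.40-fold. It was 0.59 without knockout replicate 3 and 0.42 without knockout replicate 2.

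Of the 10 genes, 1, Nfe2l2, passed 0.05 in the limma fit over all genes, where 0.906% of all genes passed and 0.415% passed as higher. Since that contrast was known when the genes were put together, nothing is read from this count. Nfe2l2 missed 0.05 in 7 of the 9 fits that left out 1 array, and kept it without control replicate 2 and without knockout replicate 3. Leaving out knockout replicate 3 brought the count to 3, with Slc7a11 and Sqstm1 added, where 182 of all genes passed. Nothing is read from the counts of these other fits either. Of the 10 genes, 2, Nfe2l2 and Sqstm1, had all 3 knockouts above all 6 controls, as did 2.52% of all genes.

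Keap1, the substrate adaptor that marks Nrf2 for degradation, read 7.86 to 8.01 in the controls, with a median of 7.92, and 7.92, 8.02 and 7.81 in the knockouts. The groups overlapped throughout, and the highest and the lowest of the 9 values were both knockouts. Control replicates 3 and 5 and knockout replicate 1 hold the same deposited value, the median over the 9 arrays. The difference was -0.014 (SE 0.066, 95% confidence interval -0.16 to 0.13), and its sign was opposite in 6 of the 18 other fits, with a range from -0.066 to 0.039. A second, dimmer Keap1 probe differed by -0.073 (SE 0.078).

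Sqstm1, whose product p62 delivers ubiquitinated cargo to autophagosomes and sequesters Keap1, followed the pattern of Nfe2l2 at a smaller size. It read 11.18, 11.25, 11.24, 11.20, 11.13 and 11.09 in the controls. The knockouts read 11.58, 11.64 and 11.26. The first and second knockout stood clear of the controls, and the third lay just above the highest control. The difference was 0.31 (SE 0.083), or 1.24-fold, with 0.43 without knockout replicate 3 and 0.24 without knockout replicate 2.

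**Figure D1:**
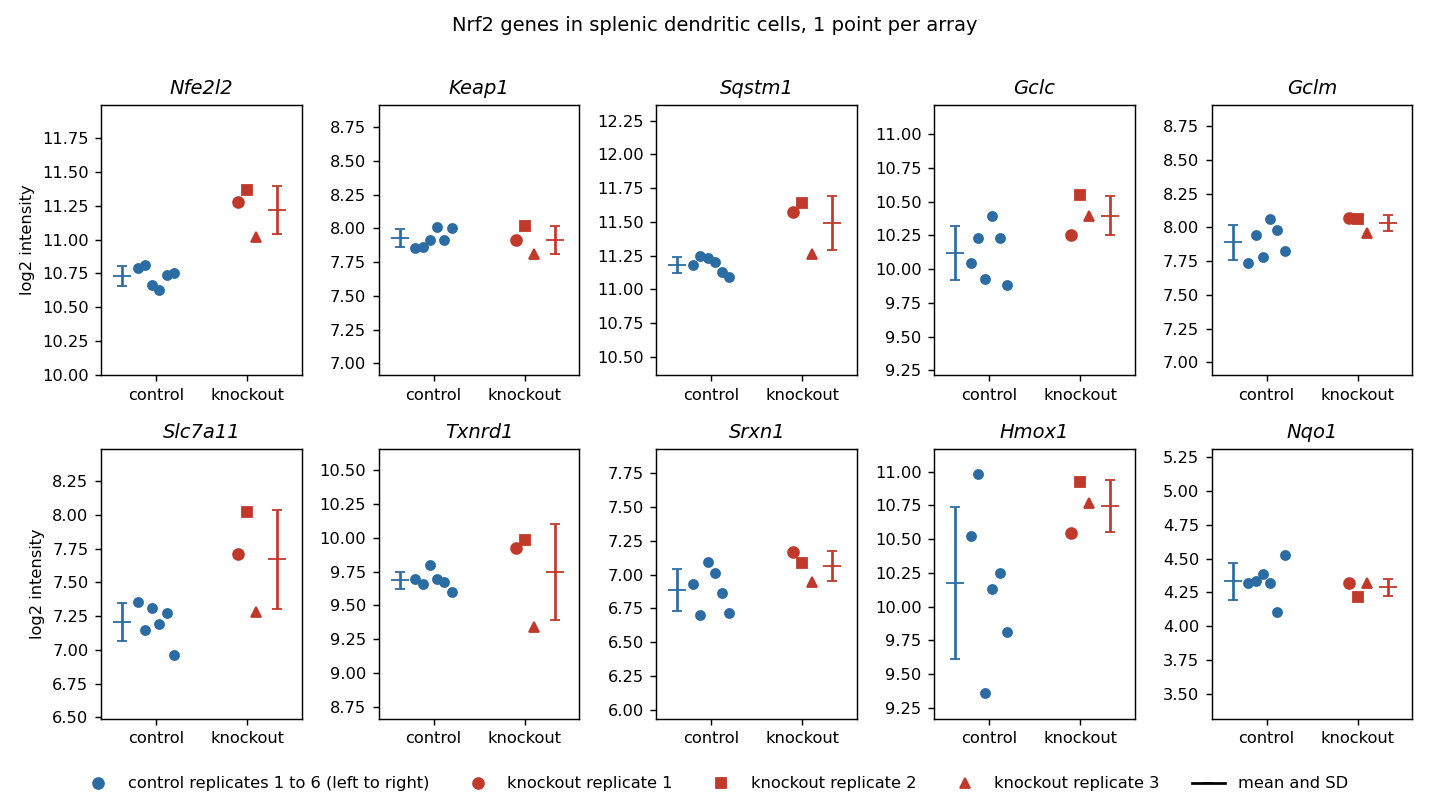
Log2 intensity of each of the 10 genes in every array, with the 6 controls in blue and the 3 knockouts in red, and the mean and SD of each group at the side. Each panel spans 2 log2 units around its own centre, so spreads can be compared but heights cannot. Nfe2l2 and Sqstm1 show knockouts above all controls, Hmox1 spreads widely among the controls, and knockout replicate 3 (triangle) is the lowest knockout in 7 of the 10 genes.

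Slc7a11, Gclc and Gclm, which act in cystine uptake and the first step of glutathione synthesis, had higher means in the knockouts, with overlapping groups. Slc7a11 encodes the light chain of the cystine-glutamate exchanger, which brings in the cystine that limits glutathione synthesis. It read 7.35, 7.15, 7.31, 7.19, 7.27 and 6.96 in the controls and 7.71, 8.02 and 7.28 in the knockouts. The first and second knockout lay above every control, and the third lay inside their range. The difference of 0.46 (SE 0.14), or 1.38-fold, became 0.66 without knockout replicate 3 and 0.29 without knockout replicate 2. A second, dimmer Slc7a11 probe differed by 0.087 (SE 0.14).

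Gclc, the catalytic subunit of glutamate-cysteine ligase, which makes the first bond of glutathione, read 10.05, 10.23, 9.92, 10.39, 10.23 and 9.88 in the controls. It read 10.25, 10.55 and 10.39 in the knockouts. All 3 knockouts lay above the control mean and 1 lay above every control, for a difference of 0.28 (SE 0.12). The regulatory subunit Gclm read 7.74 to 8.06 in the controls, with a median of 7.88, and 8.07, 8.06 and 7.96 in the knockouts. Its difference was 0.14 (SE 0.080), 0.21 against control replicates 1 to 3 alone and 0.075 against control replicates 4 to 6 alone.

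Txnrd1, the cytosolic thioredoxin reductase, read 9.60 to 9.80 in the controls, with a median of 9.68. The knockouts read 9.92, 9.98 and 9.34, so that replicates 1 and 2 lay above every control and replicate 3 below every control. The difference was 0.063 (SE 0.12) over all samples, 0.27 without knockout replicate 3 and -0.053 without knockout replicate 2, so its sign rested on single samples.

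Srxn1, sulfiredoxin, which repairs over-oxidised peroxiredoxins, read 6.93, 6.70, 7.09, 7.01, 6.86 and 6.71 in the controls and 7.17, 7.08 and 6.95 in the knockouts. Only knockout replicate 1 lay above every control. The difference was 0.18 (SE 0.096). Srxn1 starts 15.6 megabases from Cebpb on chromosome 2 and Nfe2l2 92.0 megabases from it (GRCm38.p6, RefSeq starts), so DNA linked to the loxP-flanked allele and the loss of C/EBPβ cannot be told apart for a gene as near as Srxn1.

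Upstream DNA of these genes was searched for the sequences that Nrf2 and stress factors are known to bind, in the 250 bases before the RefSeq start (GRCm38.p6), which was matched for 8 of the 10 genes (not Hmox1 and Gclc). The core of the antioxidant response element was searched on both strands as TGACNNNGC and as TGAGNNNGC, and either can overlap the AP-1 site TGANTCA. A match to either was found for 5 of the 8 genes (Nfe2l2, Gclm, Srxn1, Slc7a11 and 1 of the 3 Txnrd1 starts). Counted by window, it was found in 5 of the 10 windows of these 8 genes and in 23.0% of all 32851 windows of this length. Taken singly, TGACNNNGC was found in 10.2% of windows, TGAGNNNGC in 14.4% and TGANTCA in 6.75%. The C/EBP-ATF response element, at which ATF4 is known to bind with a C/EBP partner, was searched on both strands as TGATGCAA and found in 0.792% of windows. Slc7a11 was the 1 gene of the 8 with it, and it had 2 copies, which 2 of the 32851 windows did. Those of Srxn1 and Slc7a11 are shown because they hold the most matches. Srxn1 lies at chr2:152105274-152105523 on the plus strand and Slc7a11 at chr3:50443614-50443863 on the minus strand.
Srxn1: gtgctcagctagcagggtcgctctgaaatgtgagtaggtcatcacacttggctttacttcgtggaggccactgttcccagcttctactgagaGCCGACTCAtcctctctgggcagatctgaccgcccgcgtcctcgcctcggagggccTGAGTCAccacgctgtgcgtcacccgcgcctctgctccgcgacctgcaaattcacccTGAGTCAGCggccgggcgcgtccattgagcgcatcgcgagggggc
Slc7a11: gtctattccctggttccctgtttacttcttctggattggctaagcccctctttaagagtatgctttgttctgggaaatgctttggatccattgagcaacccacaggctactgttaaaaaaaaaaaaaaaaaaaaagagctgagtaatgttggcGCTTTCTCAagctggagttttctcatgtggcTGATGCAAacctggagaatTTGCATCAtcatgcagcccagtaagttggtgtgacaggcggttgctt
Capitals mark the matches. In Srxn1 they are, from 5′ to 3′, a TGAGNNNGC match on the opposite strand at 158 to 150 bases before the start, an AP-1 match at 102 to 96 bases, and at 45 to 37 bases a TGAGNNNGC match that contains a second AP-1 match. In Slc7a11 they are a TGAGNNNGC match on the opposite strand at 97 to 89 bases, and TGATGCAA at 66 to 59 bases on the same strand and at 47 to 40 bases on the opposite strand. A match describes the letters only, and binding was not measured.

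Haem oxygenase 1, which degrades haem to biliverdin, iron and carbon monoxide and is abundant in red pulp macrophages of the spleen, varied more among the controls than between the groups. Hmox1 read 10.52, 10.98, 9.36, 10.13, 10.25 and 9.81 in control replicates 1 to 6. The knockouts read 10.54, 10.92 and 10.77. Control replicate 2 was the highest of the 9 samples and control replicate 3 the lowest, 3.09-fold apart, and each knockout lay above the control mean but none above control replicate 2. The SD over the controls, 0.56, lay at percentile 99.86 of the control SDs of all genes. The difference of 0.57 (SE 0.28, 95% confidence interval -0.054 to 1.19) was 0.73 without control replicate 2 and 0.40 without control replicate 3.

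Markers of red pulp macrophages moved with Hmox1. With the control mean set to 0, the mean over all 12 listed markers, each of them measured, was 0.14, 0.55, -0.54, -0.054, 0.081 and -0.17 in control replicates 1 to 6, the same order of the samples as for Hmox1. In the knockouts it was 0.22, 0.74 and 0.69. All 12 markers lay above the median gene, from Cd163 at 6.14 to the highest at 10.43, and 0 passed 0.05 by limma. In bulk RNA a larger share of a cell type and more RNA per cell cannot be told apart, and the part of these cells in the Hmox1 difference was not tested.

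Gene by gene, after the group mean was taken from each value, the 3 genes most like Hmox1 over the 9 arrays were Epb41l3 (Pearson r = 0.98, Spearman rho = 1), Galnt3 (r = 0.98, rho = 0.92) and Ccr3 (r = 0.96, rho = 0.93). They were picked as the highest of 22179 genes, so these values describe 9 arrays and carry no p. Of the 12 red pulp markers, 11 had r above 0.7 with Hmox1, from Mertk (r = 0.75) to Slc40a1 (r = 0.94), the iron exporter, and the exception was Adgre1 (r = 0.24). The median over the 12 was 0.895, beside -0.065 over all genes. The 3 genes most like Nfe2l2 were Rap1b (r = 0.97, rho = 0.75), Ch25h (r = 0.97, rho = 0.93) and Tra2b (r = 0.96, rho = 0.97). For Nfe2l2, r with the 12 red pulp markers was not computed.

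Nfe2l2 spanned 0.18 over the same 6 controls, where Hmox1 spanned 1.63. The mean of the 12 red pulp markers was also higher than the control mean in all 3 knockouts. Not every single marker was: Cd5l read 5.94 and 6.34 in knockout replicates 1 and 3, against a control mean of 6.38. Slc40a1 and Mertk in knockout replicate 1, and Adgre1 in knockout replicate 3, also lay below their control means. The remaining markers of the list lay above theirs in all 3 knockouts. The part of red pulp macrophages in the Nfe2l2 difference was not tested. The mean of 11 monocyte and macrophage markers was 0.19, 0.26 and 0.31 in the knockouts against -0.16 to 0.12 in the controls, so all 3 knockouts lay above the controls, and the part of monocytes or macrophages in the Nfe2l2 difference was not tested. Of these 11 markers 10 lay above the median gene, the lowest was Fn1 at 5.62, and 0 passed 0.05 by limma.

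**Figure D2:**
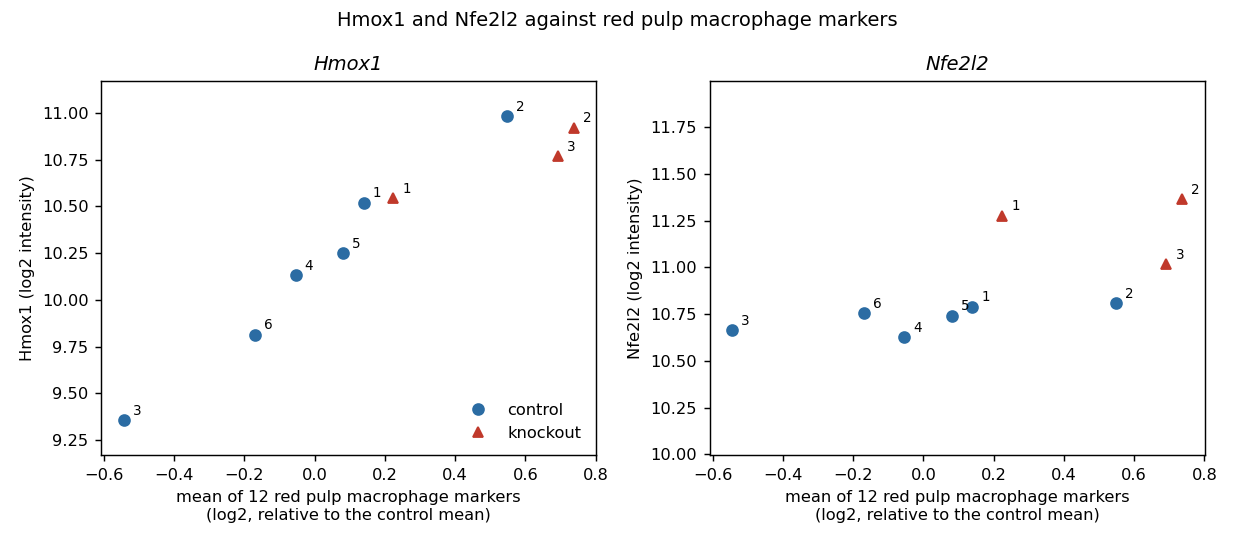
Log2 intensity of Hmox1 (left) and Nfe2l2 (right) in each array against the mean of 12 red pulp macrophage markers relative to the control mean, with controls as blue circles, knockouts as red triangles and replicate numbers beside the points. Hmox1 climbs with the markers over the controls from 9.36 to 10.98, and Nfe2l2 lies between 10.63 and 10.81 in the controls and lies higher in all 3 knockouts.

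Nqo1, a quinone reductase widely used as a readout of Nrf2 activity, was dim in all samples. It read 4.32, 4.33, 4.38, 4.32, 4.10 and 4.53 in the controls and 4.32, 4.22 and 4.32 in the knockouts, all below the array medians. The knockouts lay inside the control range. The difference was -0.046 (SE 0.083, 95% confidence interval -0.23 to 0.14). How much of this signal is background was not measured, and a change of a dim probe is compressed on this kind of array.

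Over the 10 genes, 8 differences were positive and 2 negative, with a median of 0.23 beside -0.014 for all genes tested. All 3 knockouts lay above the control mean in 7 genes, and the share over all genes was not computed. Since this contrast was known when the genes were put together, nothing is read from these counts or from the median. The groups of Nfe2l2 and Sqstm1 do not overlap, so their sign cannot turn when a sample is left out. Hmox1, Gclm, Gclc, Srxn1 and Slc7a11 kept their sign in all 18 other fits, as did Nqo1 in the 17 fits that tested it, while Keap1 and Txnrd1 did not. Fits that change only the estimate of spread or the set of genes leave a difference as it is, so they could not turn a sign.

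**Figure D3:**
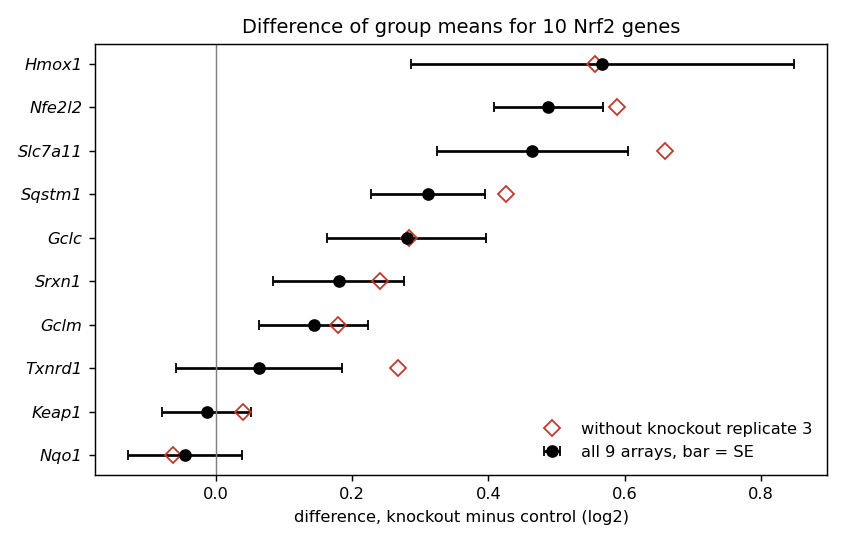
Difference of group means, knockout minus control on the log2 scale, for the 10 genes with all 9 arrays (black, bar = SE) and without knockout replicate 3 (red diamonds). The differences run from -0.046 for Nqo1 to 0.57 for Hmox1, and those of Slc7a11 and Txnrd1 move most when that sample is left out, to 0.66 and 0.27.

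Other genes of the pathway and of connected functions were read from 10 lists, which hold 189 genes, 169 of them measured. Of these, 5 passed 0.05 by limma over all genes, 3 higher and 2 lower in the knockout, or 2.96% beside 0.906% of all genes, and the median difference was 0.0015. Most of these genes gave no call, as did most of all genes, and their median was near that of all genes. An unadjusted p under 0.05 by limma was found for 38 of the 169 and for 14.3% of all genes. The lists were chosen with earlier results of these data known, so nothing is read from either count.

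Partners and regulators of Nrf2 had a median difference of 0.096, with 0 of 19 past 0.05 and 7 at an unadjusted p under 0.05. Of all genes, 14.3% had an unadjusted p under 0.05, the background for this count in each list, and nothing particular to a list is read from it. Bach1, the haem-sensing repressor that competes with Nrf2 for antioxidant response elements, read 9.60 to 9.74 in the controls and 10.28, 10.17 and 9.73 in the knockouts. Its difference of 0.37 (SE 0.11) had limma's adjusted p = 0.13 and it passed without knockout replicate 3, the sample that lay inside the control range. Prkcd, a kinase reported to phosphorylate Nrf2, differed by 0.20 with every knockout above every control (adjusted p = 0.14), and the ubiquitin ligase Trim21 by -0.34 (adjusted p = 0.18).

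Among 22 genes that make or use glutathione, 0 passed 0.05 and 6 had an unadjusted p under 0.05, with a median of -0.032. Gsr, the reductase that regenerates glutathione, read 9.24 to 9.52 in the controls and 9.79, 9.60 and 9.79 in the knockouts, a difference of 0.31 (SE 0.074, adjusted p = 0.080). Chac1, which breaks glutathione down and is induced by ATF4, read 6.43 to 6.75 in the controls and 7.38, 7.85 and 6.67 in the knockouts. Its difference of 0.73 (SE 0.20, adjusted p = 0.11) was 1.05 and passed without knockout replicate 3. Ggct, gamma-glutamylcyclotransferase, differed by -0.32 (adjusted p = 0.16).

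The median of thioredoxins and peroxiredoxins was -0.069, and 0 of 13 passed 0.05, with 2 at an unadjusted p under 0.05. Their smallest p was that of Sesn1, a sestrin induced by p53, with -0.29 (adjusted p = 0.087), followed by Txnip, the inhibitor of thioredoxin (-0.18, adjusted p = 0.31), and Prdx2 (-0.17, adjusted p = 0.37). For superoxide and peroxide removal the median was -0.021 and 0 of 7 passed, with 0 at an unadjusted p under 0.05. Here Sod3, the extracellular superoxide dismutase, differed by 0.14, catalase (Cat) by 0.12 and Park7 by -0.049, and limma's adjusted p was 0.63 or higher for each.

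The median of detoxification enzymes was 0.0043, and 0 of 26 passed 0.05, with 3 at an unadjusted p under 0.05. Ephx1, the microsomal epoxide hydrolase and a known Nrf2 target, read 6.84 to 7.12 in the controls and 7.13, 7.44 and 7.62 in the knockouts. Its difference was 0.39 (SE 0.10, adjusted p = 0.099) and it passed without knockout replicate 1. Mgst2 differed by 0.15 (adjusted p = 0.28) and Aldh3a1 by -0.32 (adjusted p = 0.34).

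The enzymes that supply NADPH, the reductant of both the glutathione and the thioredoxin systems, had 2 of 12 members lower and 0 higher, with a median of -0.094. Idh2, the mitochondrial NADP-dependent isocitrate dehydrogenase, read 9.59 to 9.89 in the controls and 9.20, 9.32 and 8.95 in the knockouts. Its change was -0.58 (SE 0.094, adjusted p = 0.026). Nnt, the mitochondrial transhydrogenase that makes NADPH from NADH, read 8.75 to 9.01 in the controls and 8.42, 8.30 and 8.57 in the knockouts, a change of -0.45 (SE 0.083, adjusted p = 0.041). C57BL/6J mice, but not every C57BL/6 substrain, carry a deletion in Nnt, and the labels give no substrain, so substrain and the loss of C/EBPβ cannot be told apart for this gene. Idh2 passed in 3 and Nnt in 2 of the 9 fits that left out 1 array. The fits that kept Idh2 lacked control replicate 1, control replicate 2 or knockout replicate 1, and those that kept Nnt lacked control replicate 2 or knockout replicate 3. Rpia of the pentose phosphate pathway differed by -0.35 (adjusted p = 0.18).

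In haem and iron handling the median difference was 0.0089, and 0 of 22 genes passed 0.05 by limma, with 7 at an unadjusted p under 0.05. The haemoglobin-haptoglobin receptor Cd163 differed by 0.42 (adjusted p = 0.074) and Spic, the transcription factor of red pulp macrophages, by 0.71 (adjusted p = 0.11), and both are also in the red pulp list. Cd163 passed without control replicate 2. Tfrc, the transferrin receptor, differed in the opposite direction, by -0.38 (adjusted p = 0.095), with every knockout below every control.

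Of 19 autophagy partners of p62, 1 rose and 0 fell, with a median of 0.033. Gabarapl1, a member of the LC3 family that p62 binds on autophagosomes, read 8.61 to 8.86 in the controls and 9.45, 9.45 and 8.98 in the knockouts, and rose by 0.57 (SE 0.11, adjusted p = 0.041). It passed in 1 of the 9 fits that left out 1 array, the one without knockout replicate 3, and it missed 0.05 with array medians centred. Map1lc3b, another LC3 gene, differed by 0.20 with all knockouts above all controls (adjusted p = 0.13), and Traf6, a ubiquitin ligase partner of p62, by 0.25 (adjusted p = 0.27).

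ATF4 is the stress factor that also drives Slc7a11. The list called ATF4 targets here also holds Atf4 itself and the kinases Eif2ak3 and Eif2ak4, which act above it. The list had a median of 0.074, with 1 of 17 higher and 0 lower. Ddit3, the C/EBP-related factor CHOP, read 7.44 to 7.69 in the controls and 8.01, 8.02 and 7.96 in the knockouts, a change of 0.42 (SE 0.068, adjusted p = 0.027). It passed in 5 of the 9 fits that left out 1 array and missed when control replicate 1, 4 or 5, or the second knockout, was left out. Atf3 differed by 0.56 (SE 0.11, adjusted p = 0.053), with all knockouts above all controls, and passed without control replicate 2. Shmt2, a mitochondrial serine enzyme and itself an ATF4 target, differed by -0.43 (adjusted p = 0.061) and passed without knockout replicate 1. The list therefore held differences in both directions.

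Among 13 genes of oxidant production, 1 rose and 0 fell, with a median of 0.0052. Xdh, xanthine dehydrogenase, whose oxidase form makes superoxide and hydrogen peroxide, read 6.85 to 7.11 in the controls and 7.64, 7.61 and 7.78 in the knockouts. It rose by 0.66 (SE 0.075, adjusted p = 0.0048), and passed in all 9 fits that left out 1 array. Against control replicates 1 to 3 alone or 4 to 6 alone it missed, and over all alternatives its adjusted p ranged from 0.0019 to 0.12. The NADPH oxidase subunits Ncf4 and Rac2 differed by -0.11 and -0.13 (adjusted p = 0.42 and 0.32).

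**Figure D4:**
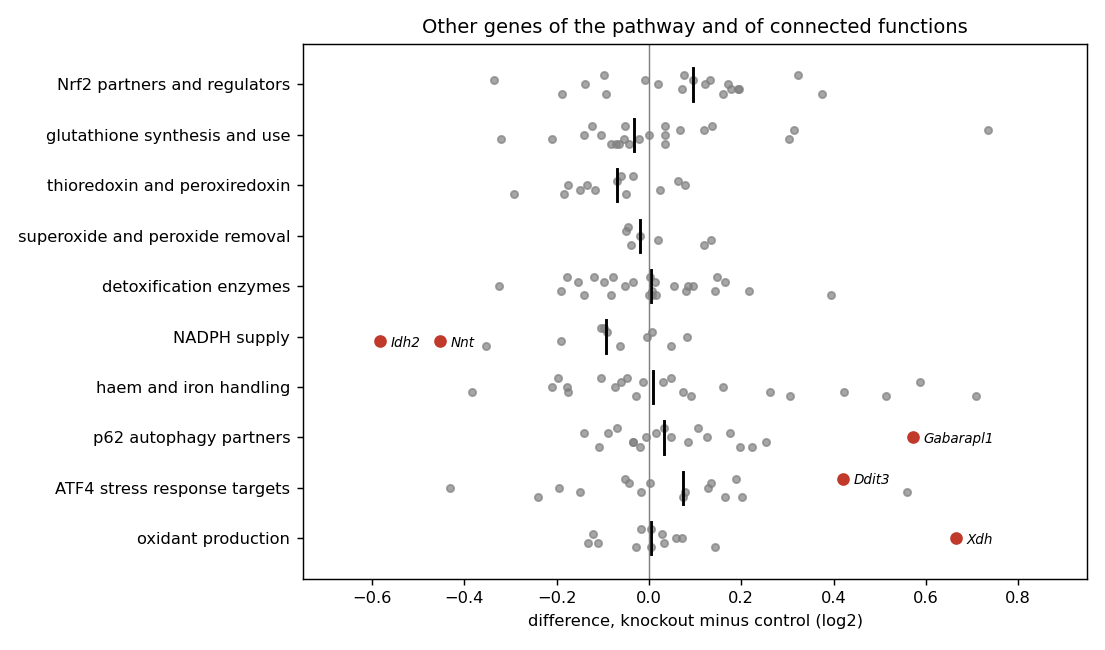
Difference, knockout minus control on the log2 scale, for each measured gene of 10 lists (1 point per gene, with vertical position within a list arbitrary), with the list median as a black bar and genes past limma's adjusted p of 0.05 in red with their names. The medians lie between -0.094 and 0.096, and 5 genes are in red, Idh2 and Nnt on the lower side and Gabarapl1, Ddit3 and Xdh on the higher side.

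Markers of the remaining cell types were read in the same samples. The mean of 8 plasmacytoid DC markers was 0.045, 0.19 and 0.57 in the knockouts against -0.12 to 0.27 in the controls. That of 9 neutrophil markers, 8 of which lay below the median gene, was 0.072, 0.13 and -0.0067 against -0.061 to 0.048. For 5 erythroid markers it was 0.040, 0.051 and 0.079 against -0.065 to 0.050. Of these markers, Slc4a1 differed by 0.50 and Tfrc by -0.38 (limma's adjusted p = 0.11 and 0.095), so the mean joins opposite directions. For 8 T and NK cell markers the mean was 0.073, -0.095 and 0.056 against -0.084 to 0.085. The part of any of these cells in the values of the 10 genes was not tested.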

How the data were processed

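The authors deposited 1 log2 intensity for each transcript cluster and array, made with RMA per the submitters' processing notes. RMA corrects background, normalizes by quantiles and summarises probes, so a shift of most genes would be removed and changes of dim probes are compressed. The range of the values gave the log base. RMA version and genome build are not given in the sources used. In 4 of the 10 genes (Keap1, Nqo1, Gclc and Txnrd1), at least 2 arrays hold the same deposited value, which is the gene's median over the 9 arrays.

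Of 34468 probes with values, 23521 had 1 gene symbol in the platform annotation supplied, 1814 had several and 9133 none. The 22180 genes with a probe of 1 symbol were kept, each by its probe with the highest mean, with no filter on signal. Groups came from the genotype label. Knockout and control were compared over all genes in limma 3.58.1 on R 4.3.3 (lmFit, eBayes, no covariate, two-sided), adjusted by Benjamini-Hochberg, threshold 0.05. The number of arrays limits the precision. Each difference subtracts the control mean from the knockout mean and carries the SE of the limma fit.

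The 10 genes, the gene lists and the marker lists were chosen with earlier results of these data known. Named genes were Cebpb, the 10 genes, per list the 3 with the smallest p and all past 0.05, per marker list the 2 with the highest mean (given where a result touches them), and the 3 genes most like Nfe2l2 and like the member with the largest control SD. Other markers, and genes that passed in a single alternative, were named after their values were seen. Alternatives were array centring, a second quantile normalization, trend and robust eBayes, array weights (statmod 1.5.0), a replicate block, 3 of the 6 controls, averaging the probes of a gene, counting all probes, a filter on level, and each array left out. Promoter windows came from RefSeq (GRCm38.p6). The fit was tested on simulated data. Figures were drawn with matplotlib 3.10.9.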

Additional observations from a re-analysis of the deposited data

Results flagged for a closer look

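Among 62 named genes, 3 had 1 control far from the other 5, where chance flags about 1 in 20. Sod3 read 5.24 in control replicate 6 and 5.49 to 5.64 in the others, with a gap of 0.635 of the whole range. Cxcr2, a neutrophil marker, read 6.09 in control replicate 6 and 5.87 to 5.95 in the others, a gap of 0.637. Tcf4, a plasmacytoid DC marker, read 8.41 in control replicate 4 and 8.52 to 8.55 in the others, a gap of 0.816. None of the 10 Nrf2 genes had such a control.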

How the results depend on the processing

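The count of genes past 0.05, 201 over all samples, was 125 with array medians centred, 652 with array weights (which gave knockout replicate 3 the lowest weight, 0.472), 3 with control replicates 1 to 3 only, 20 with control replicates 4 to 6 only and 537 among genes above the median level. Leaving out 1 array gave 33 (without knockout replicate 2) to 332 (without knockout replicate 1). Of the 10 Nrf2 genes, 1 passed over all samples, 3 with array weights, 0 with either set of 3 controls, and 0 to 3 with 1 array left out. The 3 were Nfe2l2, Slc7a11 and Sqstm1 both with array weights and without knockout replicate 3. Since this contrast was known when the genes were put together, nothing is read from these counts. Among the lists, array weights gave 2 calls for Nrf2 partners, 1 each for glutathione, thioredoxin, detoxification and haem genes, and 3 for ATF4 targets. The filter on level gave 1 each for glutathione, thioredoxin and detoxification genes, 2 for haem genes and 3 for ATF4 targets. ATF4 targets also had 3 calls after a second quantile normalization and 2 with trend and robust fitting, and p62 partners had 0 with medians centred. Control replicates 1 to 3 only gave 0 for NADPH supply, p62 partners, ATF4 targets and oxidant production, and control replicates 4 to 6 only gave 0 for NADPH supply, p62 partners and oxidant production. With 1 array left out, the calls ranged from 0 to 2 for NADPH supply and for ATF4 targets, and from 0 to 1 for p62 partners and for the Nrf2 partner, glutathione, detoxification and haem lists. Some of these fits held fewer samples or genes, and the causes of the shifts were not tested. The differences of the 10 genes moved by less than the gene's pooled within-group SD over the 9 arrays in every fit that tested them, except for Txnrd1, at 0.27 without knockout replicate 3. The median difference of all genes was -0.023 with medians centred.

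The replicate numbers did not pair the samples: same-numbered controls and knockouts correlated at -0.14, -0.10 and 0.047 in their deviations over all genes, and 0 of 3 knockouts correlated best with the control of its number. With the replicate number as a block, 134 genes passed, and 1 of the 10 Nrf2 genes. It changed no count of a list. Array number and background limit what can be seen: dim probes such as Nqo1 have compressed differences, and no detection measure was used here.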
